A study of Mus musculus with 12 samples.

Results

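The genes described here encode the linker histones (H1) and the core histones (H2A, H2B, H3 and H4) of the mouse. Members were the rows whose gene symbol begins with H1f, H2ac, H2bc, H3c or H4c followed only by a number, or with the older Hist1h to Hist4h names. The family was chosen by symbol, after levels and co-variation of these genes with Mki67 and Top2a had been seen in these data, so those values are given as descriptions. The rule found 73 members among 32498 named rows, all under the newer symbols. They comprised 11 H1, 18 H2A, 19 H2B, 12 H3 and 13 H4 members. Of the 73 members, 67 were matched to GENCODE M21 (GRCm38, the same build as mm10), and 53 of these lay on chromosome 13, 10 on chromosome 3, and 2 each on chromosomes 15 and 6.

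The libraries came from tongue tissue of C57BL/6 mice, bought at an age of 5 weeks, and the labels call the cells tumor and tumor-associated. All mice drank water with the oral carcinogen 4-nitroquinoline 1-oxide (4NQO, 100 µg/mL) over 16 weeks. There were 6 vehicle libraries and 6 libraries from mice given gallic acid (GA), a plant phenolic acid. The dose of GA was 100 mg/kg by gavage, with 5 gavages a week starting in week 4. The labels number the libraries but do not state that each is a separate mouse, so p-values measure the spread between these libraries. The recovered totals of vehicle libraries lay between 18039779 and 21773026 reads, and those of GA libraries between 21234447 and 25190002. Reads from Y-linked genes were present in 4 of 6 vehicle and 1 of 6 GA libraries. Lipf, a lipase of lingual glands, reached 8079 to 26220 scaled FPKM in vehicle libraries 3 and 5 and GA library 2, and at most 0.498 in the other libraries. Muscle markers were present in every library, with a summed level of 1323 to 10737 scaled FPKM in the vehicle group and 1985 to 8328 in the GA group, and oral epithelium markers summed to between 13826 and 39489.

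Core histones form the spool around which DNA is wound, and linker histones bind where the DNA enters and leaves it. Most genes of this family are transcribed in S phase, when new DNA must be packaged, and their mRNAs usually end in a short stem-loop in place of a poly(A) tail. The stem-loop is bound by the protein SLBP and is needed for processing and decay of these mRNAs. Some members, among them the replacement linker histones H1f0 and H1f10, are made outside S phase and carry a poly(A) signal. Because many core members share stretches of sequence, to an extent that differs between members, short reads can match several of them.

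The 3′ ends differ between members, and the windows below show the stem-loop letters and the poly(A) signal, which some members hold together. The letters of the stem-loop (GGNNNTNNTNANNNCC, searched within 100 bases after the stop codon on the transcript strand) were found in 43 of 67 matched members, against 0.682% of 21834 other coding genes. They were found in 4 of 10 H1, 10 of 17 H2A, 9 of 16 H2B, 9 of 12 H3 and 11 of 12 H4 members. The search reached only annotated bases, so a member whose annotated transcript ends near the stop codon cannot show the letters. Members without them include H4c12, H2bc13 and H3c10, with only 312, 381 and 411 exon bases annotated. They also include longer ones, such as H2bc21 with 2620. A missing match is therefore not evidence of a missing stem-loop. The commonest form, held by 24 members, occurred in H1, H2A, H2B and H3 members, whereas a second form was held by 6 members, all of them H4. Capitals mark the stem-loop letters (GENCODE M21, 5′ to 3′).

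H1f2: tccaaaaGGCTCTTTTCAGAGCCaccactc
H2bc8: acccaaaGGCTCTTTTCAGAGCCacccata
H3c15: ccacaaaGGCTCTTTTCAGAGCCaccacag
H4c8: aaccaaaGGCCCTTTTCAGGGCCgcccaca
H4c9: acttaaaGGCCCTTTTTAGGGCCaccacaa
H2ac7: aaacaaaGGCTCTTTTCAGAGCCatccact
H4c6: tctcaaaGGCCCTTTTCAGGGCCacccact

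The poly(A) signal AATAAA was found in the last 50 bases of the annotated transcript in 13 of 67 matched members, against 65.9% of other coding genes. Some members held both, namely H1f2, H1f6, H2ac8, H2bc22, H3c14, H4c1, H4c11 and H4c14. The annotated transcript of H1f2 reached 840 bases past the stem-loop. Capitals mark the signal in 4 members, which are the 4 with this signal among the 12 matched members of at least 1 FPKM.

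H1f0: ttaaaactttaaAATAAAactggaaaggaa
H1f2: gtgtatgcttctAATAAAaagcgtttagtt
H1f10: ttcctggggcgcAATAAAcggttccaacct
H2bc21: gttattattattAATAAAgttaccgattag

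The levels of the family were concentrated in a few members. FPKM are reads divided by gene length and by the library total, which allows for length when genes are set side by side. Scaled FPKM are FPKM divided by a factor per library. H1f0, H1f2 and H2bc4 together held 79.8% of the summed scaled FPKM of the family. Their mean levels were 90.8, 69.8 and 34.4 scaled FPKM, and they were the only members above the mean level of Top2a (15.5 scaled FPKM). Only 13 of 73 members (17.8%) reached a mean of 1 scaled FPKM, compared with 37.4% of all named rows. The other 60 members lay below it, and 9 of them (H1f7, H2ac1, H2ac18, H2ac19, H2ac21, H2bc18, H3c13, H3c14 and H4c2) were at 0 in all 12 libraries. Of these 9, 5 were annotated with every exon base inside other genes, and no member above 0 was. Another 3 of the 9 were annotated with part of their exon bases inside other genes. Partial overlap was not particular to them, since all matched H2A members above 0 had it (from 9.91% in H2ac6 to 35.9% in H2ac22). Whether a read in such bases was counted depends on counting settings that are not given in the sources used here. Summed over members, H1 genes held 68.5% of the family's level, H2B 19.0%, H4 8.23%, H3 2.32% and H2A 1.90%.

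**Figure D1:**
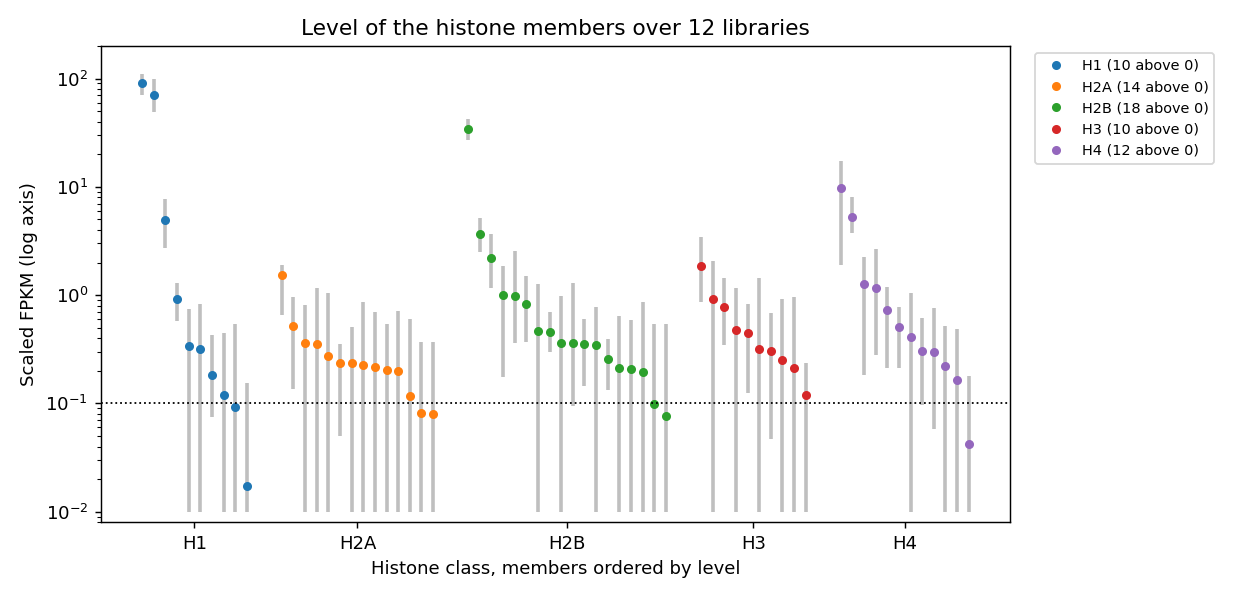
Mean scaled FPKM of the 64 members above 0 (points) with the lowest and highest of 12 libraries (grey lines, a lowest value of 0 drawn from 0.01) on a log axis, by class. The dotted line marks 0.1 FPKM, the filter of the test, and 3 members stand above 10 FPKM.

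Sequence shared between members limits what the low values mean. The median share of a matched member's 50-base windows also found in other genes was 49.7%, ranging by class from 1.13% in H1 to 78.9% in H2A. The authors counted uniquely mapped reads, so levels of H2A, H2B, H3 and H4 members with shared sequence are uncertain. The annotated length matters too. H1f3 was annotated with 7425 exon bases, of which 4884 lay past its stem-loop, and its 13 to 68 reads per library gave a mean of only 0.181 scaled FPKM.

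Among the replication-independent histones outside the rule, H3f3b, H3f3a and H2az1 had mean levels of 183.5, 110.4 and 78.4 scaled FPKM. These variant histones can be deposited in chromatin outside S phase as well as within it. Each of these mean levels was above that of every core member of the family. The paper does not state whether RNA was selected by its poly(A) tail, and mRNAs of most members usually lack one. What RNA selection did to the levels of the family, beside these or other genes, was not tested.

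No member passed the test between GA and vehicle. With limma, 0 of 57 tested members had a Benjamini-Hochberg adjusted p below 0.1 together with a log2 fold change of 0.58 or more in either direction, and 0% of all 16852 tested genes did. The paper, by edgeR, reports genes that passed these limits, among them Carmil2, Cd27 and Fos. Without adjustment, 4 of 57 members (7.02%) had p below 0.05, against 2.16% of all tested genes. Of these, 3 were higher with GA (1.12% of all genes) and 1 was lower (1.04% of all genes). All 4 had means below 1 FPKM, where 3.24% of 4690 tested genes and 9.09% of 44 members had such a p. The median log2 fold change was 0.02 over the members and 0.00 over all tested genes, with 31 members higher and 26 lower with GA. A share of 54.4% of members was higher, against 50.9% of all genes. No member had groups that did not overlap, and 0.0653% of all genes did. Of the 57 members, 15 (26.3%) had a log2 fold change of 0.58 or more in size, against 8.57% of all genes, and 14 of the 15 had means below 1 FPKM, where 17.9% of tested genes did. These numbers carry no test for the family, since its members were chosen with results of these data known. In bulk tissue, fewer cells of a type and less RNA per cell cannot be told apart.

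**Figure D2:**
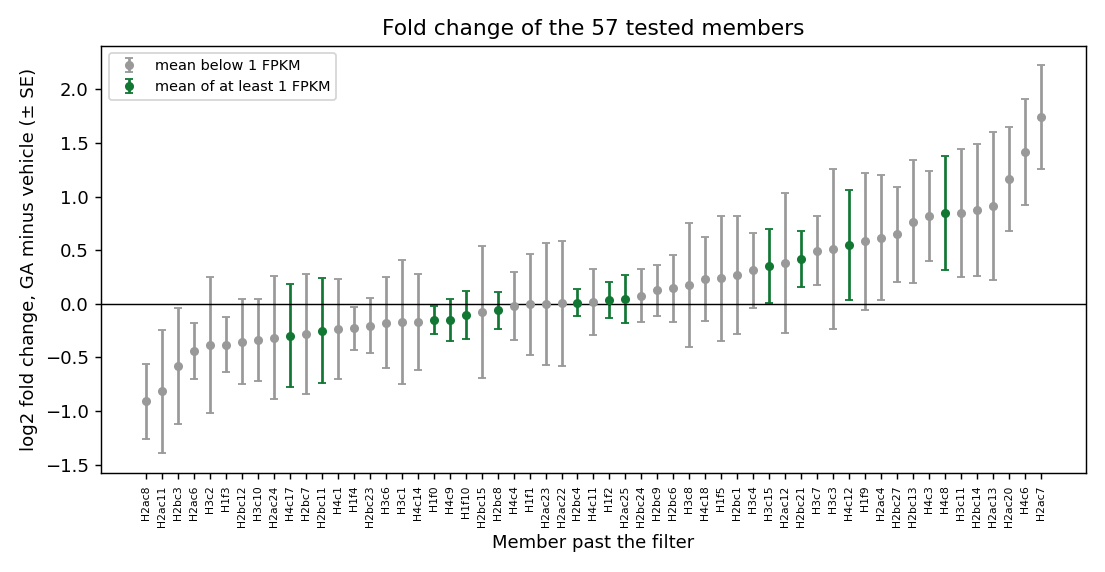
Log2 fold change (GA minus vehicle, ± SE) of the 57 tested members, ordered by value. Members with a mean of at least 1 FPKM (green) lie between -0.30 and 0.84, and the extremes on both sides are members below 1 FPKM (grey).

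The linker histones did not differ between the groups by more than their spread. H1f0, a replacement linker histone of cells that have left the cycle, ranged from 77.9 to 109 scaled FPKM among vehicle libraries (median 93.6) and from 71.0 to 108 among GA libraries (median 82.0). The groups overlapped, and the log2 fold change was -0.15 ± 0.13 (SE, n = 6 per group, 95% interval -0.44 to 0.13). H1f2, a somatic linker histone, ranged from 49.5 to 99.5 scaled FPKM among vehicle libraries (median 64.9) and from 51.8 to 82.7 among GA libraries (median 72.9). Its log2 fold change was 0.03 ± 0.17 (SE, n = 6 per group, 95% interval -0.33 to 0.40). H1f10, another replacement linker histone, had means of 4.997 ± 0.896 and 4.85 ± 1.86 scaled FPKM (SD, n = 6 per group) in vehicle and GA libraries. The remaining H1 members with a mean of at least 0.1 FPKM were H1f4, H1f5, H1f9, H1f3 and H1f1, with means of 0.927, 0.342, 0.320, 0.181 and 0.119 scaled FPKM. H1f3 was among the 3 members with the smallest unadjusted p in the lower direction, with a log2 fold change of -0.38 ± 0.26 (SE), and 0 of 6 GA libraries lay above its vehicle median.

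H2bc4 was the most abundant core member. It ranged from 27.3 to 42.3 scaled FPKM among vehicle libraries (median 34.0) and from 29.7 to 38.6 among GA libraries (median 35.7). Its log2 fold change was 0.01 ± 0.12 (SE, n = 6 per group, 95% interval -0.26 to 0.28). H2bc8 had means of 3.74 ± 0.719 and 3.58 ± 0.827 scaled FPKM (SD, n = 6 per group) in vehicle and GA libraries. H2bc21, a member with a poly(A) signal, ranged from 1.15 to 2.57 scaled FPKM among vehicle libraries (median 1.83) and from 1.21 to 3.68 among GA libraries (median 2.43). Above the vehicle median were 5 of 6 GA libraries, the log2 fold change was 0.42 ± 0.26 (SE), and the groups overlapped. H2bc11 and H2bc27 had means of 1.011 and 0.975 scaled FPKM.

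**Figure D3:**
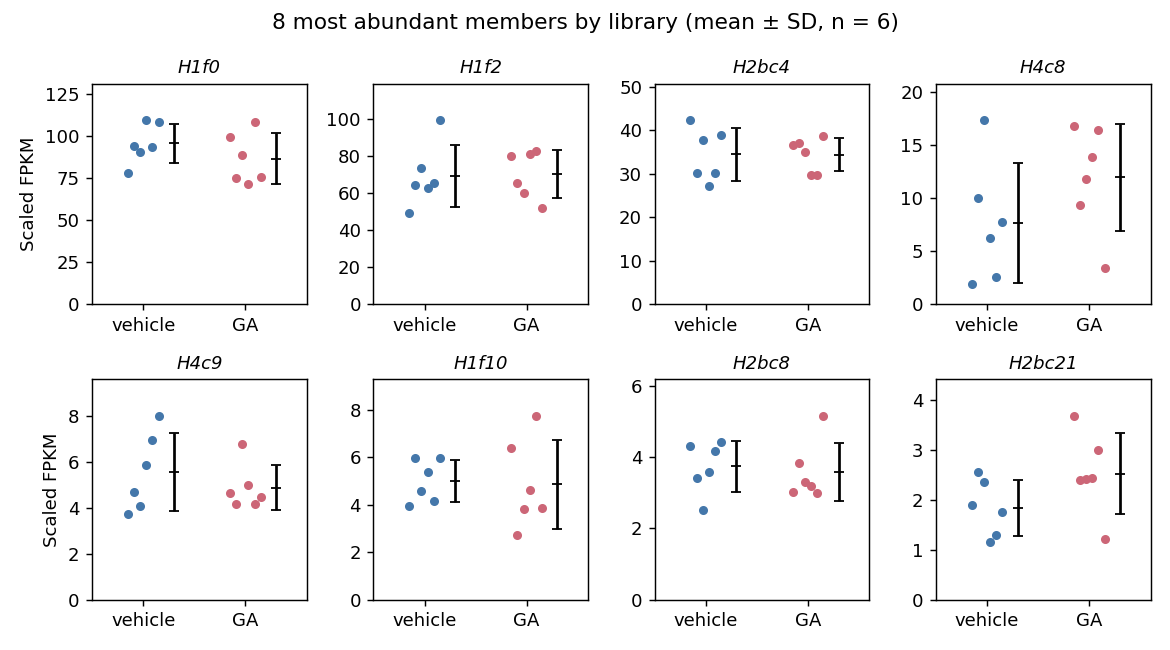
Scaled FPKM of the 8 members with the highest means, 1 point per library, with the mean ± SD of 6 libraries per group beside the points. The groups overlap in all 8, and H4c8 has the largest ratio of the highest to the lowest library among these 8 (9.10, from 1.91 to 17.4 scaled FPKM).

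The H2A members were the lowest class relative to their number. H2ac25 led with a mean of 1.53 scaled FPKM and had no matched entry in the annotation. The next were H2ac8, H2ac11, H2ac7 and H2ac13, with means between 0.271 and 0.519 scaled FPKM. H2ac7 had the smallest unadjusted p of the family. Its recovered reads were 3, 0, 2, 1, 0 and 1 in vehicle libraries 1 to 6 and 7, 15, 6, 1, 6 and 12 in GA libraries 1 to 6. The GA libraries were higher except library 4, and the groups overlapped there. Its log2 fold change was 1.74 ± 0.48 (SE, n = 6 per group, limma unadjusted p = 0.00345, adjusted p = 0.99993). H2ac8 was lower with GA, at 7, 9, 13, 8, 7 and 13 reads in vehicle libraries against 2, 4, 3, 7, 3 and 17 in GA libraries. GA library 6 held the most reads of all 12, and the log2 fold change was -0.91 ± 0.35 (SE). H2ac20 and H2ac6 were also among the members with the smallest unadjusted p, with log2 fold changes of 1.16 ± 0.49 and -0.44 ± 0.26 (SE). Shared windows made up 67.1% of H2ac7 and 43.2% of H2ac8, and 24.1% and 19.6% of their exon bases lay opposite another annotated gene. Their part in these values was not tested.

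Of the H3 members, only H3c15 exceeded 1 scaled FPKM. It ranged from 0.857 to 2.87 scaled FPKM among vehicle libraries (median 1.35) and from 1.16 to 3.42 among GA libraries (median 1.80), and the groups overlapped. H3c11, H3c4, H3c8 and H3c10 had means of 0.916, 0.775, 0.476 and 0.449 scaled FPKM. H3c11 was above its vehicle median in 6 of 6 GA libraries, but vehicle libraries 3 and 6 reached 2.06 and 1.54, and its log2 fold change was 0.85 ± 0.60 (SE), or 0.33 without vehicle library 5, which had a value of 0.

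H4c8 had the largest SD of log2(scaled FPKM + 0.1) over the 12 libraries among the 13 members of at least 1 FPKM (1.07). By the ratio of the highest to the lowest library it stood at 9.10, below H4c12 (12.4), H2bc11 (10.7) and H4c17 (9.59). Vehicle libraries 1 to 6 held 1.91, 9.997, 17.4, 6.19, 2.58 and 7.73 scaled FPKM, and GA libraries 1 to 6 held 16.9, 9.33, 11.9, 13.9, 16.5 and 3.43. The level was high in vehicle library 3 and GA libraries 1 and 5, low in vehicle libraries 1 and 5 and GA library 6, and the groups overlapped widely. The log2 fold change was 0.84 ± 0.53 (SE, n = 6 per group, 95% interval -0.31 to 1.998), and it was 1.18 with a term for Y-linked reads. It fell to 0.53 without vehicle library 1, and the other single libraries left out gave up to 1.17. In the same comparison 7 of 8 muscle markers (median 0.53 on the log2 scale), 4 of 4 endothelium markers (0.11) and 2 of 2 tested germ cell markers (0.43) had higher GA values. Lower with GA were 8 of 8 oral epithelium (median -0.17), 6 of 6 tested neutrophil (-0.73), 6 of 6 fibroblast (-0.35) and 5 of 5 tested von Ebner gland markers (-1.47). T cell, B cell and erythroid markers were mixed, and none of these markers passed the test. H4c9 differed less, with 3.72 to 7.996 scaled FPKM among vehicle libraries (median 5.29) and 4.15 to 6.77 among GA libraries (median 4.55). H4c12, H4c17 and H4c18 had means of 1.26, 1.17 and 0.732 scaled FPKM, and H4c6 had a log2 fold change of 1.42 ± 0.49 (SE) on 0 to 8 reads per library.

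Pairs of members showed little common variation over the libraries. The median Pearson r over the 1596 pairs of tested members was 0.01, and 6.20% of pairs were above 0.5. For comparison, 30 S phase and proliferation genes gave a median r of 0.76 over 435 pairs, with 80.9% above 0.5. Libraries and depth are shared by all these values. The sets were not matched for level. Of the 57 tested members, 44 had means below 1 FPKM, whereas means of the S phase genes ran from 0.422 (Fen1) to 30.6 (Pcna). Some members of at least 1 FPKM also had few reads, such as H4c12 with 1 to 17 per library. The part of low read counts in these r values was not tested. Among the 13 members of at least 1 FPKM the median was -0.02, with 5 of 78 pairs above 0.5 and 7 below -0.5. The 5 positive pairs were H1f10 and H1f0 (r = 0.76), H4c8 and H2bc21 (0.75), H1f2 and H4c8 (0.65), H2bc4 and H4c12 (0.61), and H1f2 and H1f10 (0.58). The most negative pair was H2bc8 and H4c8, with r = -0.82 (-0.78 within vehicle, -0.99 within GA). The other negative pairs were H2bc4 and H2bc11 (-0.75), H2bc8 and H2bc21 (-0.69), H2bc21 and H4c17 (-0.65), H2bc8 and H2bc11 (-0.64), H1f10 and H3c15 (-0.60), and H4c12 and H2bc11 (-0.60).

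The member score, the mean log2(scaled FPKM + 0.1) over the tested members, was set against Mki67, which encodes the proliferation antigen Ki-67, and Top2a, the DNA topoisomerase of dividing cells. Of the 57 members in the score, 44 had means below 1 FPKM. Over 12 libraries the score had r = -0.27 and Spearman rho = -0.28 with Mki67, and r = 0.02 and rho = -0.09 with Top2a. On FPKM as deposited, without scaling, r was 0.02 and 0.28. Without the 2 libraries farthest from the median of each gene, r was 0.00 and -0.17. Within groups of 6, r with Mki67 was -0.43 in the vehicle group and 0.21 in the GA group. Mki67 itself ranged from 9.64 to 25.8 scaled FPKM and had a log2 fold change of -0.31 ± 0.21 (SE, n = 6 per group). The value for Top2a was -0.14 ± 0.26 (SE), and neither passed the test. Leaving out 1 library moved these values between -0.44 (without GA library 6) and -0.19 (without GA library 2) for Mki67, and between -0.34 and -0.019 for Top2a (the same libraries). By Pearson r, the members of at least 1 FPKM ran in relation to Top2a from H2bc21 (r = -0.60, rho = -0.36) to H2bc8 (r = 0.58, rho = 0.42). By Spearman rho the order differed, from H3c15 (rho = -0.48) to H1f0 (rho = 0.52). Against the mean log2 level of the 30 S phase and proliferation genes, the member score had r = 0.26 and rho = 0.06. Single members of at least 1 FPKM ran from H2bc21 (r = -0.81, with -0.77 in the vehicle group and -0.92 in the GA group) to H4c17 (r = 0.78, with 0.82 and 0.74). Among mean log2 levels of cell type markers, the member score had its highest r with endothelium (0.64, rho = 0.65, and r = 0.36 without the 2 farthest libraries). Within the vehicle and GA groups that r was 0.92 and 0.55. Its highest rho was with von Ebner gland markers (0.69, r = 0.37), and its lowest r with oral epithelium markers (-0.44, rho = -0.42). These are descriptions over 12 libraries, of 208 relations computed, with no p.

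**Figure D4:**
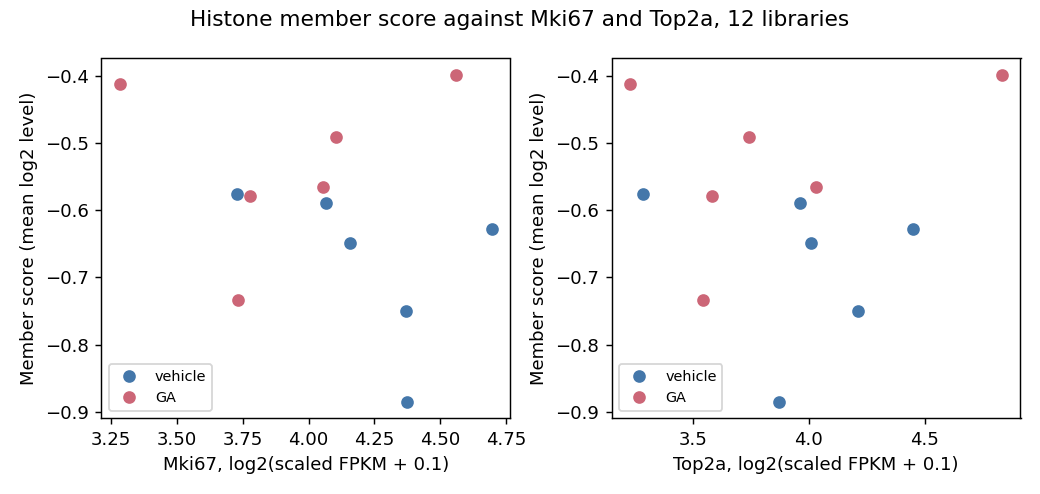
Mean log2 level of the tested members (y) against Mki67 (left) and Top2a (right), both as log2(scaled FPKM + 0.1), 1 point per library. The points are scattered (r = -0.27 and 0.02 over 12 libraries).

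By the rule for likeness, the 10 tested genes outside the family with the highest r with the score over 12 libraries were G6pc3, Zfp697, Msrb3, Zbtb4, Dnpep, Cdk20, Nedd1, Rnf130, Serpinb6a and Arhgef15, with r from 0.86 to 0.93.

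Markers of several cell types moved with H4c8, muscle among them. The relation to muscle was chosen after the values were seen, and the muscle score is the mean log2 level of Acta1, Ckm, Myh4, Myh2, Mylpf, Tnnt3, Des and Mb. Over 12 libraries H4c8 had r = 0.82 and rho = 0.79 with it, with r = 0.90 in the vehicle group and 0.70 in the GA group. Without the 2 libraries farthest on the muscle score r was 0.69. Its relation to the germ cell score (r = 0.81, rho = 0.80, 2 tested markers) and to the B cell score (r = 0.77, rho = 0.80, 3 tested markers) was about as strong over 12 libraries. Within the vehicle and GA groups r was 0.91 and 0.48 with the germ cell score, and 0.71 and 0.76 with the B cell score. The summed levels of those marker lists were at most 1.66 and 0.976 scaled FPKM, and the relation is not shown to be particular to muscle. The genes with the highest r with H4c8 were Lrtm1, mt-Nd6, Wnk2, mt-Co1, Chrne, Klk1b26, Tbx15, Bzw2, mt-Cytb and Actc1. Their r ran from 0.98 to 0.99, and they were picked from all tested genes as the highest. H2bc8 went the other way with the muscle score (r = -0.69, rho = -0.62). With the oral epithelium markers r was 0.72 for H2bc8 and -0.69 for H4c8. H2bc21 and H1f2 had r = 0.59 and 0.63 with the muscle score, and H2bc4 had r = -0.03. The part of tissue composition in the differences between groups was not tested beyond a fit with the muscle score as a term, in which the log2 fold change of H4c8 was 0.54.

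**Figure D5:**
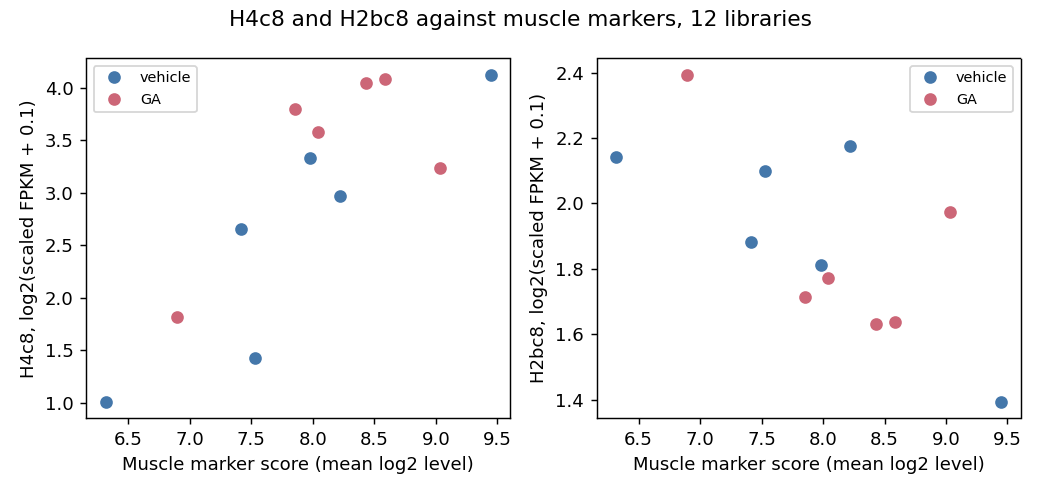
H4c8 (left) and H2bc8 (right) as log2(scaled FPKM + 0.1) against the muscle marker score, 1 point per library. H4c8 rises along the score (r = 0.82) and H2bc8 falls (r = -0.69).

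The promoters of H4c8 and H2bc8 are shown because these 2 members ran opposite to each other. Whether letters of the promoters bear on these levels was not tested. The windows span each gene's start (RefSeq, GRCm38.p6), with capitals for the 3 motifs counted in the next paragraph, searched on both strands. The H2bc8 window (chr13:23571150-23571449, plus strand) held all 3 motifs and the H4c8 window (chr13:23530794-23531093, plus strand) held none.

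H2bc8: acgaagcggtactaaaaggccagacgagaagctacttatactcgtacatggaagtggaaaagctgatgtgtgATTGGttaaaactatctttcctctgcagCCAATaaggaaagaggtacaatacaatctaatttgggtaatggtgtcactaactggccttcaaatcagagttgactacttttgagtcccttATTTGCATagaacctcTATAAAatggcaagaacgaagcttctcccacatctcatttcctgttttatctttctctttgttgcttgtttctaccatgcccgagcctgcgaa
H4c8: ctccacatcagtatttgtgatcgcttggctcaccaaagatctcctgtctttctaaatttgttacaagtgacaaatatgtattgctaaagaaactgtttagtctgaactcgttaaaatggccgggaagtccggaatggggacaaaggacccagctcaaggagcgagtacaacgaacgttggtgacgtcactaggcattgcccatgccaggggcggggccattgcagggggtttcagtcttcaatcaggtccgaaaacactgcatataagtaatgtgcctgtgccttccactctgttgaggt

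Of 62 members with a window, 34 (54.8%) held TATAAA, against 13.5% of other windows of the same length. CCAAT was found in 51 (82.3%, against 37.3%), in all H2A, H2B and H3 members with a window but in 3 of 11 H4 members. ATTTGCAT, the octamer, was found in 13 (20.97%, against 1.70%), and these were 7 of 14 H2B and 6 of 17 H2A members. Some H2A and H2B windows overlap, such as those of H2ac8 and H2bc8, so the same letters can count for each of them. A match is a description of letters in this window and not a site.

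The genes that make and handle histone mRNA and protein also had no call. Of 19 tested genes of histone mRNA 3′ end processing and transcription, 0 had an unadjusted p below 0.05, with a median log2 fold change of 0.03. The smallest p values were those of Lsm10, a component of the U7 particle that cuts histone mRNA, Cpsf1 and Coil, with log2 fold changes of 0.19, -0.12 and -0.13. Of 24 histone chaperones and import genes, 0 had such a p, and Anp32e, Chaf1b and Asf1b had log2 fold changes of 0.11, -0.26 and 0.11. Of 9 replication-independent variants outside the rule, 0 had such a p, and Macroh2a2, Macroh2a1 and H2az2 had 0.18, -0.09 and 0.12. Of 30 S phase and proliferation genes, 0 had such a p, 7 were higher and 23 lower with GA, and the median was -0.06. Ccnb1 and Plk1, a mitotic cyclin and a mitotic kinase, had log2 fold changes of -0.38 ± 0.23 and -0.35 ± 0.22 (SE).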

How the data were processed

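Alignment was to mm10, by HISAT2, and featureCounts summed the uniquely mapped reads of each gene. The authors deposited FPKM values, which are divided by gene length and library total. Their version of the annotation is not given in the sources used here. Rows without a gene name (22965 of 55463) were left out. Between 96.7% and 98.4% of low FPKM values were whole multiples of 1 read (tolerance 0.02 reads) with GENCODE M21 lengths less 17 to 24 bases, which gave the library totals; depth limits low members to few reads. Each library was divided by a factor from an unweighted trimmed mean of log ratios ( 0.914 to 1.08). Named rows with a mean of at least 0.1 deposited FPKM (16852) entered limma 3.58.1 on log2(scaled FPKM + 0.1), a scale that understates changes of low genes, with Benjamini-Hochberg adjustment over all of them. The design was written for this filter; it was first run on scaled FPKM (16847 genes) and then set to the deposited values. The edgeR test of the study works on counts, the deposited values were FPKM, and that test was not run. Reads recovered from the FPKM entered only an alternative fit (voom). The members, lists and tests were chosen with earlier results of these data known. Named were the 5 most abundant members of each class, H1 members of at least 0.1 FPKM, the 3 smallest p in each direction, Mki67, Top2a, 3 genes per list and 10 genes most like the score. Genes most like H4c8 were named outside this rule. Correlations are descriptions. Alternatives covered pseudocounts, filters, scaling, eBayes settings, covariates and left-out libraries.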

Additional observations from a re-analysis of the deposited data

Results flagged for a closer look

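Of 100 groups of 6 values checked, 7 had a highest or lowest library whose gap to its neighbour, relative to the group's range, was above Dixon's critical value, and chance alone flags about 1 in 20 groups. H2ac25 in vehicle library 5 was lowest at 0.651 scaled FPKM, with the next at 1.56. GA library 6 was highest for H2ac8 (0.956, next 0.443), for H3c11 (1.58, next 1.06) and for Top2a (28.4, next 16.2 scaled FPKM). H4c9 in GA library 3 was highest at 6.77 scaled FPKM, with the next at 5.01. Vehicle library 6 was highest for H1f3 (0.425, next 0.232) and for H1f1 (0.450, next 0.140 scaled FPKM).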

How the results depend on the processing

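Across every alternative run, 0 of the histone members were called, and so was no other gene except 1 without vehicle library 4. The count of members with an unadjusted p below 0.05 was 4, and 0 with a mean of at least 1 FPKM, where only 13 members were tested. Leaving out 1 library gave 3 to 6 members, with 252 (without GA library 3) to 853 (without GA library 6) of all genes below 0.05, against 364. That count was 214 with a mean of at least 1 FPKM and 552 with no filter, which test fewer and more genes. It was 809 without vehicle library 3. The cause of the shifts with left-out libraries was not tested. The filter on scaled FPKM, added after the data were seen as were the muscle term and voom on recovered reads, tested 16847 genes and gave 364.

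Library numbers did not pair the groups: correlations of the deviations of same-numbered libraries ran from -0.37 to 0.08. With the replicate block, 0 members were called, 5 members and 245 of all genes had an unadjusted p below 0.05.

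The r of the score with Mki67 was 0.21 within GA libraries against -0.27, and leaving out 1 library gave -0.55 to -0.00. With Top2a that range was -0.40 (without GA library 6) to 0.27 (without GA library 2), against 0.02. Both relations changed sign with other settings. FPKM as deposited, without scaling, gave 0.02 with Mki67 and 0.28 with Top2a, leaving out the high-Lipf libraries gave 0.06 and 0.40, and members with a mean of at least 1 FPKM gave -0.41 and -0.32. The r of H4c8 with the muscle score was 0.94 without the 3 high-Lipf libraries, 0.70 within GA libraries and 0.69 without the 2 farthest libraries, and 0.72 to 0.86 without 1 library.

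Small log2 fold changes turned direction. With the sex term, H1f2 was -0.033, H1f5 -0.16, H3c15 -0.15, H3c8 -0.36 and Macroh2a2 -0.0090. With the muscle term, H1f2 was -0.034 and H2bc8 0.0098. Without the high-Lipf libraries, H2ac25 was -0.23, H2bc4 -0.018, H2bc11 0.10, H4c18 -0.27 and H1f1 0.32. H2bc4 was -0.010 with median ratio scaling, H3c8 was -0.0022 with pseudocount 1 and H1f1 0.057 with pseudocount 0.01. Leaving out 1 library gave -0.19 to 0.30 for H1f1, -0.25 to 0.040 for H1f10, -0.056 to 0.15 for H1f2, -0.11 to 0.63 for H1f5, -0.16 to 0.12 for H2ac25, -0.52 to 0.085 for H2bc11, -0.054 to 0.072 for H2bc4 and -0.25 to 0.48 for H3c8. None of these was called. Of 44 named genes tested, 38 moved by over 1.5 times or changed sign when 1 library was left out.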
